A study of Homo sapiens with 12 samples.

Results

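EndoC-βH3 is a human cell line with beta-cell traits that was made from a fetal pancreas and kept dividing by 2 introduced genes, hTERT and the SV40 large T antigen. Its proliferating, non-senescent state was measured by CEL-seq, which reads the 3′ ends of polyadenylated transcripts, in 6 of the 12 libraries of the series. These 6 were chosen by their labels, non-senescent cells with the treatment given as control, and the other 6 came from cells made senescent by 3 weeks of 4-hydroxytamoxifen, which lets a CreER recombinase cut out the introduced genes. Both groups were of the same line, with the genotype given as WT, so the line and the donor pancreas behind it were never varied. The letter A or B in the sample titles was taken as the batch, since the study describes its libraries as made in 2 batches. Batch A held 2 non-senescent libraries and batch B held 4. As nothing in the labels says that libraries of a batch came from separate cultures, their spread may be technical.

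A mature beta cell stores insulin in dense-core granules together with granins, convertases and zinc, and releases it when glucose is taken up and metabolised, ATP-sensitive potassium channels close and calcium enters. Islet neighbours make glucagon (alpha cells), somatostatin (delta cells), pancreatic polypeptide or ghrelin. Endocrine cells share much of their exocytosis machinery and many transcription factors with neurons, and the T antigen that keeps the line dividing binds tumour suppressor proteins such as Rb.

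Libraries held 8873569 and 12792199 reads in batch A and 4672924 to 5746836 reads in batch B. Levels are given as a share of all reads of a library, in percent or in reads per 1000000 reads (ppm), and ranges run from the lowest to the highest library of a batch. A gene was called on at 10 ppm or more in each of the 6 libraries, absent at 3 reads or fewer in each, and low otherwise. By this rule 6532 of the 35337 genes of the table were on (18.5%), 9431 were low and 19374 were absent (54.8%). Absence here means that a level above about 0.235 ppm in the deepest library and 0.642 ppm in the shallowest was not seen, and these floors cover counting error only. The genes that were on held 94.1% to 94.9% of the reads of each library, and 96.2% of them are protein-coding. The batches disagreed outright on 533 genes that were at or above the limit in both A libraries and under it in all B libraries, and on 591 genes the other way round.

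The promoters of the genes for chromogranin A, somatostatin and insulin are shown because the granule and hormone levels below turn on these 3 genes. Each sequence gives the 250 bases before the transcription start, 5′ to 3′ on the strand of the gene, from RefSeq on GRCh38.p14. CHGA lies on the plus strand at chr14:92922900-92923149, SST on the minus strand at chr3:187670395-187670644 and INS on the minus strand at chr11:2161210-2161459. Capitals mark matches on either strand to TGACGTCA (a cyclic AMP response element), CTAATG (which holds the TAAT core read by homeodomain factors such as PDX1) and TATAAA.
CHGA: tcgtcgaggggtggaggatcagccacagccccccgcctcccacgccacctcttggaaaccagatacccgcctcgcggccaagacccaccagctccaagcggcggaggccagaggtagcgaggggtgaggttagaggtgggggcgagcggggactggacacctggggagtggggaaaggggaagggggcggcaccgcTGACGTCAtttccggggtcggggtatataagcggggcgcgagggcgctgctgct
SST: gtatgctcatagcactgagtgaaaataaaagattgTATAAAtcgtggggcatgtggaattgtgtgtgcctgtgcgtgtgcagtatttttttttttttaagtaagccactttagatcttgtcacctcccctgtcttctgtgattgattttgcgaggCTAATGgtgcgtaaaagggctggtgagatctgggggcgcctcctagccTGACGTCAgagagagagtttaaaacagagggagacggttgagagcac
INS: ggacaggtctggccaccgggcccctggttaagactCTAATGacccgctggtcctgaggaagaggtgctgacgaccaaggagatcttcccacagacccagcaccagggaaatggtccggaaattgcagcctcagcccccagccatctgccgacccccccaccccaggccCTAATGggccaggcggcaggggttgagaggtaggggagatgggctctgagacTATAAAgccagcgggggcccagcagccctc

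The sequence TGACGTCA stood at position -54 of CHGA and at -47 of SST, and no exact match to it was found in the INS window. Other forms of the cyclic AMP response element were not searched for, so INS may hold one. The INS window held CTAATG at -215 and -82 and TATAAA at -30, and the SST window held CTAATG at -95 and TATAAA at -215. Among 35116 promoter windows of 300 bases, 250 before and 50 after the start, TGACGTCA was found in 1.85%, CTAATG in 6.49% and TATAAA in 11.5%. The windows of genes that were on held TGACGTCA in 3.16%, TATAAA in 5.80% and CTAATG in 4.42%, and those of absent genes held them in 0.974%, 18.8% and 7.20%. These are matches of letters only and do not show that a factor was bound.

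The 10 most abundant genes took 27.8% to 32.4% of the reads of each library, the 100 most abundant 46.8% to 48.5%, and the 1000 most abundant 69.6% to 71.2%. CHGA (ENSG00000100604.13, chromosome 14, 92923150 to 92935285 on GRCh38), the granin that helps to form dense-core granules, was first in all 6 libraries. It took 6.83% and 6.79% of the reads in batch A and 8.26%, 8.09%, 8.56% and 8.70% in batch B, and it stayed first when reads were divided by transcript length. SST, the somatostatin gene, was number 3 on average and GNAS, which encodes the stimulatory G-protein subunit that drives cyclic AMP production, was number 8. Mitochondrially encoded genes filled 10 of the first 20 places and took 19.9% to 20.2% of the reads in batch A and 15.6% to 16.4% in batch B. Another 2 of the first 20, MTND1P23 and MTRNR2L12, are nuclear copies of mitochondrial sequence, for which reads of the mitochondrial genes and of the copy cannot be told apart. The 86 ribosomal protein genes took 3.91% to 4.61%, and none reached the first 20.

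**Figure D1:**
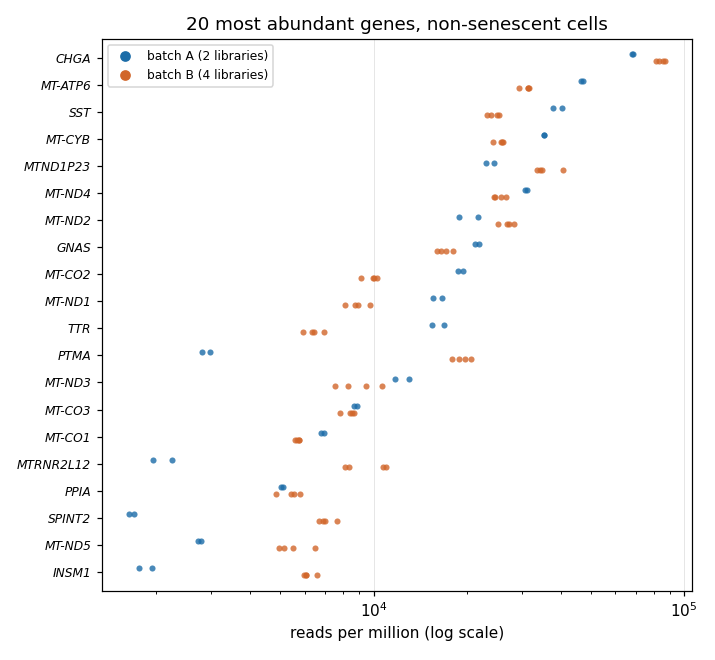
Level in ppm (log axis) of the 20 most abundant genes in each non-senescent library, with batch A in blue (2 points) and batch B in orange (4 points), ordered by the mean of the batch means. CHGA is to the right of all others, and PTMA, SPINT2 and INSM1 lie further right in batch B, whereas TTR and SST lie further right in batch A.

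Besides CHGA, SST, GNAS and the nuclear copies, the first 20 held 5 nuclear genes, which differed in how steady they were. PPIA, which encodes the folding enzyme cyclophilin A, took 0.484% to 0.578% of the reads in all 6 libraries. TTR, the transthyretin gene, took 1.69% and 1.54% in batch A and 0.594% to 0.694% in batch B. PTMA, for the nuclear protein prothymosin alpha, took 0.297% and 0.280% in batch A but 1.79% to 2.07% in batch B, so its rank moved from 19 at worst to 8 at best. SPINT2, for a membrane-bound protease inhibitor, and INSM1, for a zinc-finger factor of endocrine differentiation, moved the same way. SPINT2 took 0.163% and 0.169% in batch A and 0.669% to 0.761% in batch B, and INSM1 took 0.176% and 0.194% in batch A and 0.596% to 0.660% in batch B.

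Hormone transcripts were dominated by somatostatin. SST (ENSG00000157005.4, chromosome 3, 187668912 to 187670394) took 4.04% and 3.78% of the reads in batch A and 2.39%, 2.32%, 2.50% and 2.54% in batch B. INS (ENSG00000254647.7, chromosome 11, 2159779 to 2161221) took 0.483% and 0.381% in batch A and 0.225%, 0.234%, 0.161% and 0.206% in batch B, or 0.282% ± 0.123 (SD, n = 6) over all libraries. The batches did not overlap for either gene. In each library SST had 8.37 to 15.5 times as many reads as INS, or 6.41 to 11.9 times as many per kilobase of transcript. INS was gene number 22 by the mean of the batch means, between 16 and 37 in single libraries, and number 16 per kilobase. The second beta-cell hormone gene, IAPP for islet amyloid polypeptide, was number 543, at 271 to 301 ppm in batch A and 118 to 132 ppm in batch B. INS had 12.3 to 18.1 times the reads of IAPP in the same library, and both genes were lower in batch B, by 2.12-fold for INS and 2.28-fold for IAPP on the log2(value + 1) scale of the normalised read count.

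Glucagon transcripts were also on. GCG was at 405 and 349 ppm in batch A and at 660 to 765 ppm in batch B, the opposite order to INS, so that INS had 10.9 to 11.9 times the reads of GCG in batch A and only 2.36 to 3.54 times in batch B. As these are bulk libraries, more cells with a transcript and more transcript per cell cannot be told apart, and the data do not show whether single cells carried several hormones. PPY, for pancreatic polypeptide, was absent, with 3 reads over the 6 libraries together, and GHRL, for ghrelin, was low at 1.56 to 2.03 ppm in batch A and 0 to 1.07 ppm in batch B. Of the 18 hormone and peptide genes of the list 7 were on, 5 low and 6 absent. The other 3 that were on were IGF2, for a growth factor, at 432 to 437 ppm in A and 584 to 732 ppm in B, NPY, for neuropeptide Y, at 104 to 182 ppm, and UCN3, for urocortin 3, a peptide of mature beta cells, at 80.2 to 109 ppm with overlapping batches. The genes for VIP, TRH, galanin, CART and PACAP (VIP, TRH, GAL, CARTPT and ADCYAP1) were absent.

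The granule list was the list of the endocrine groups with the highest share on, at 18 of 23 genes with the remaining 5 low. All 7 granin genes were on, but very unequally. CHGB, for chromogranin B, was at only 42.2 to 48.4 ppm with overlapping batches, so CHGA had 1417 to 2031 times as many reads, and 3181 to 4560 times as many per kilobase. PCSK1N, for proSAAS, was the second granin at 2456 to 2802 ppm in batch A and 1521 to 1707 ppm in batch B, and SCG3 was at 398 to 514 ppm. Among processing enzymes, PCSK2, for prohormone convertase 2, was at 1064 to 1105 ppm in A and 2488 to 3336 ppm in B, against 44.5 to 52.8 and 106 to 141 ppm for PCSK1. PCSK2 reads were 18.1 to 31.6 times those of PCSK1, or 11.9 to 20.8 times per kilobase. The zinc transporter gene SLC30A8 was at 599 to 646 ppm in A and 329 to 411 ppm in B. SCGN, for the calcium sensor secretagogin, was among the steadiest members at 1021 to 1154 ppm, and GAD2, for the glutamate decarboxylase that is an autoantigen of type 1 diabetes, was at 474 to 519 ppm in A and 149 to 173 ppm in B. Of the 3 vesicular amine or acetylcholine transporter genes only SLC18A3 was on, at 20.8 to 38.1 ppm.

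Beta-cell transcription factors were on as a group, with 17 of 26 on, 7 low and 2 absent, and the core set had 12 of 14 on. INSM1 and NEUROD1 led by reads, the latter at 996 to 1153 ppm in batch A and 1730 to 1934 ppm in batch B. PDX1, the factor that binds the insulin promoter and defines the pancreatic lineage, was at 376 to 405 ppm in A and 361 to 457 ppm in B, with no difference seen between batches (limma log2 difference 0.01 ± 0.09 SE, adjusted p = 0.903). ISL1 (215 to 241 ppm), RFX6 (268 to 318 ppm) and NKX2-2 (102 to 140 ppm) overlapped between batches as well. PAX6, FOXA2, NKX6-1 and MNX1 were higher in every B library than in either A library, with NKX6-1, a keeper of beta-cell identity, at 46.7 to 47.8 ppm and 74.3 to 88.4 ppm.

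The 2 core factors that were not on were MAFA and GLIS3. MAFA, a factor of mature beta cells, had 16 and 14 reads in batch A and 7, 7, 18 and 22 reads in batch B, or 1.25 to 3.85 ppm. PAX4 was low at 2.00 to 4.06 ppm. Of the factors named here as late or adult, SIX3 (10.4 to 23.9 ppm), ESRRG, MEIS2 and ST18 were on and SIX2 was low. HNF4A, a hepatocyte nuclear factor, fell on either side of the limit, with 21.3 to 21.4 ppm in A and 5.59 to 6.26 ppm in B.

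The label of pancreatic beta cells was thus met in part by the marker genes. Of 9 beta-cell markers 7 were on, and MAFA and G6PC2, for a glucose-6-phosphatase subunit of beta cells, were low. Of 5 alpha-cell markers 4 were on, and these were GCG, TTR, IRX2 and GC. Of 3 delta-cell markers SST and HHEX were on and LEPR was low. HHEX, the delta-cell homeobox factor, was at 57.8 to 63.1 ppm in A and 16.9 to 22.8 ppm in B, so SST had 600 to 1479 times as many reads. The summed level of the delta markers, 37912 to 40501 ppm in A and 23200 to 25428 ppm in B, was nearly all SST. The summed alpha markers, mostly TTR, were at 16016 to 17503 and 7328 to 8433 ppm. The summed beta markers were at 5674 to 6615 and 3647 to 4265 ppm, the lowest of these 3 sums in both batches. The beta sum lay below the alpha sum only because TTR was counted as an alpha marker. As markers of all 3 cell types were on, this set of transcripts is described below as that of EndoC-βH3 cells, without a single islet cell type.

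**Figure D2:**
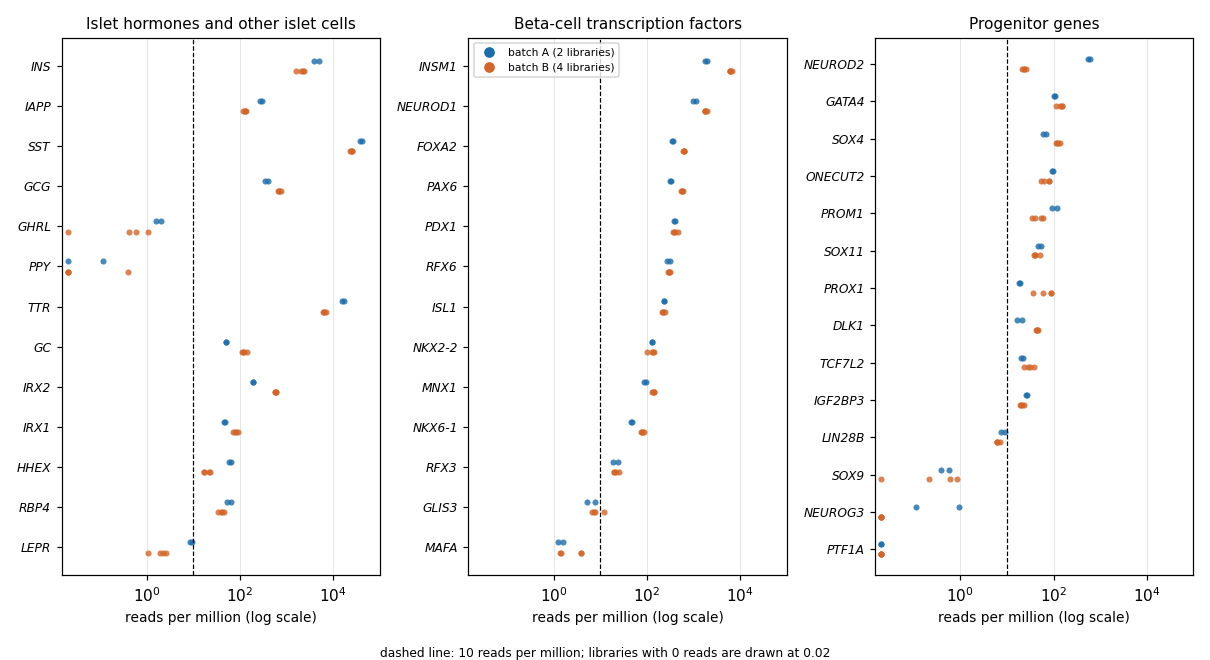
Level in ppm (log axis) of islet hormone and islet cell genes, beta-cell transcription factors and progenitor genes in each non-senescent library, with batch A in blue, batch B in orange and a dashed line at 10 ppm. SST lies further right than INS in every library, MAFA lies left of the line in every library while PDX1 lies right of it, and NEUROG3 and PTF1A have at most 12 reads in a library.

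Genes of pancreatic progenitors were on for 10 of 30 members, with 14 low and 6 absent, against 18.5% on and 54.8% absent among all genes. That background includes pseudogenes and symbols not in GENCODE v44. Protein-coding genes made up 96.2% of the genes on but only 23.9% of the genes absent. The share on among protein-coding genes alone was not counted, so 10 of 30 cannot be called high. NEUROG3, the factor that starts endocrine differentiation, had 12 and 1 reads in batch A and 0 in each batch B library. SOX9, which marks multipotent and duct-like progenitors, was low with 0 to 5 reads, and PTF1A, ONECUT1 and SOX17 had 0 reads in all 6 libraries. GATA4 was on at 103 to 152 ppm while GATA6 was absent, and ONECUT2 was on at 54.6 to 97.5 ppm. SOX4 (60.7 to 134 ppm), SOX11 (37.4 to 54.5 ppm) and PROX1 (17.7 to 89.2 ppm), which act in endocrine or neural development, were on. Transcripts of fetal type were represented by DLK1 at 16.7 to 46.1 ppm and IGF2BP3 at 18.8 to 26.6 ppm, whereas LIN28A, LIN28B, HMGA2, IGF2BP1 and IGF2BP2 were low and AFP was absent. PROM1, for the surface protein CD133, was at 93.1 to 120 ppm in A and 34.4 to 58.5 ppm in B. SOX2, a pluripotency and neural factor, was under the limit in both batch A libraries, at 4.77 to 5.30 ppm against 16.9 to 31.8 ppm in batch B. H19 was not analysed here.

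A progenitor-list member with a neuronal name showed the widest batch gap of the listed genes that were on. NEUROD2, a bHLH factor related to NEUROD1, was at 596 and 560 ppm in batch A and at 20.6 to 25.9 ppm in batch B, 25.2-fold lower (limma log2 difference -4.65 ± 0.12 SE, adjusted p = 1.41e-08). NEUROD1 remained the leading NEUROD gene in all 6 libraries, with 64.0% of the reads of the 4 family members at the lowest and 98.9% at the highest, and NEUROD4 and NEUROD6 had 0 reads.

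Neuronal genes were on for 25 of 45 members, with 11 low and 9 absent. Of 14 genes of general neuronal identity 12 were on, among them the RNA-binding ELAVL4 (36.4 to 73.2 ppm) and RBFOX3, the NeuN gene (33.4 to 48.9 ppm), UCHL1 (382 to 517 ppm) and CELF4 (195 to 257 ppm). Of 10 synaptic vesicle genes 7 were on, led by SV2A (681 to 718 ppm in A, 428 to 516 ppm in B) and VAMP2 (620 to 674 and 260 to 339 ppm), the vesicle SNARE that insulin granules use too. Of 13 cytoskeletal genes 6 were on, including TUBB3 at 25.4 to 25.6 ppm in A and 74.3 to 87.1 ppm in B, while the neurofilament genes NEFL and NEFM were low and NEFH was absent. None of 8 regulators was on. REST, the repressor of neuronal genes outside neurons, was low with 0 to 12 reads, POU4F1 was low with 0 to 14 reads, and the other 6, among them NEUROD4, NEUROD6, TBR1, HAND2 and ISL2, were absent.

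STMN3, for a stathmin that destabilises microtubules, was at 157 and 181 ppm in batch A and at 1999 to 2360 ppm in B (12.8-fold higher, limma adjusted p = 1.41e-08), while its relative STMN1 was at 1064 to 1076 ppm in A and 636 to 734 ppm in B. The leading stathmin by reads was therefore STMN1 in batch A and STMN3 in batch B. SYT4, for a synaptotagmin of dense-core vesicles, went the other way, with 204 to 257 ppm in A and 18.6 to 21.6 ppm in B.

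Proliferation genes were on for 38 of 52 members, with 12 low and 2 absent. The replication genes were on for 14 of 16 and the mitosis genes for 18 of 20, and the exceptions CDC6, CDC45, KIF11 and HMMR were low. MCM7, a subunit of the replicative helicase, was highest by reads, at 571 to 597 ppm in A and 874 to 1003 ppm in B, and PCNA, the DNA polymerase clamp, was at 136 to 147 and 90 to 105 ppm. The proliferation antigen gene MKI67 was at 97.6 to 103 and 57.6 to 68.5 ppm, TOP2A at 201 to 219 and 123 to 134 ppm, CDK1 at 93.9 to 94.0 and 147 to 161 ppm, and the mitotic kinase gene AURKB at 113 to 126 and 327 to 395 ppm. The sum over the 52 genes was 3586 to 3684 ppm in batch A and 4403 to 4796 ppm in batch B.

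Of the regulators that start the cell cycle 6 of 16 were on, 8 low and 2 absent. CCND1 had 1 read over all libraries and CCND2 had 0, so CCND3, low at 8.22 to 17.1 ppm, supplied at least 99.4% of D-type cyclin reads in every library. CDK4 was on at 111 to 199 ppm and CDK6 low at 1.05 to 2.14 ppm. MYC, the growth regulator, was low with 0 to 11 reads, whereas MYCN was on at 46.0 to 53.4 ppm in A and 182 to 224 ppm in B, with 94.2% to 99.9% of the reads of the 3 MYC genes. E2F1 (110 to 180 ppm) and FOXM1 (66.9 to 69.3 ppm in A, 23.0 to 27.0 ppm in B), which act downstream of Rb and in mitosis, were on.

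The list of cell-cycle brakes was on for 13 of 14 genes. One of these 13, MDM2, at 14.3 to 47.7 ppm, encodes a ubiquitin ligase that acts against a tumour suppressor and is itself no brake. CDKN2C, for p18, was gene number 39 of the whole table, at 696 to 781 ppm in A and 1941 to 2058 ppm in B, and CDKN2A, which encodes p16 and p14ARF, was number 93 at 503 to 526 and 1046 to 1160 ppm. CDKN2C led the INK4 group by reads and CDKN2A led it per kilobase, and reads do not separate the p16 from the p14ARF transcript. CDKN1C, for p57, was at 367 to 392 and 151 to 180 ppm and CDKN1B at 11.4 to 16.5 ppm. CDKN1A, for p21, was the single member that was not on, at 3.44 to 4.73 ppm in A and 3.79 to 11.1 ppm in B, and CDKN2C had 165 to 515 times as many reads. RB1 itself was on at 21.6 to 39.4 ppm. TERT, which the line carries as a transgene, was low at 6.76 to 8.13 ppm in A and 15.6 to 19.1 ppm in B, and whether transgene reads count towards this gene is not known from the sources used here.

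Genes of glucose sensing and secretion were on for 23 of 48 members, with 18 low and 7 absent. Of the hexokinase genes HK1, HK2 and HK3, whose products phosphorylate glucose, the first was low with 0 to 7 reads and the others were absent. SLC2A2, for the glucose transporter GLUT2, was absent with 3 reads in all, and SLC2A1, for GLUT1, was on at 15.1 to 24.0 ppm. The sulfonylurea receptor gene ABCC8 was on at 140 to 184 ppm, and the channel pore gene KCNJ11 was at the limit, at 9.05 to 11.8 ppm. Calcium channel reads came mostly from CACNA1A, at 505 to 552 ppm in A and 263 to 277 ppm in B, or 57.3% to 82.9% of the 5 genes followed, and CACNA1D was at 30.0 to 36.1 and 92.5 to 124 ppm. Of the exocytosis genes 7 of 10 were on, with SYT7 at 75.9 to 107 ppm and RIMS2 at 73.8 to 99.3 ppm.

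Of 13 receptor genes 4 were on, 5 low and 4 absent. SSTR2, for a somatostatin receptor, was at 171 to 247 ppm and FFAR1, for the fatty acid receptor GPR40, was at 86.7 to 90.7 ppm in A and 233 to 244 ppm in B. INSR and IGF1R were on as well. GLP1R, for the incretin receptor, had 2 reads over all libraries, GPR119 had 3, and GCGR and SSTR5 had 0. GIPR, for the other incretin receptor, was low at 14.0 to 15.2 ppm in A and 2.95 to 4.35 ppm in B.

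Genes that mature islets are reported to keep silent, often called disallowed genes, were on for 8 of 19 members, with 10 low and 1, PDGFRA, absent. LDHA, for lactate dehydrogenase A, was at 117 to 129 ppm in A and 54.6 to 85.4 ppm in B and CXCL12 at 143 to 185 ppm, while SLC16A1, for a lactate transporter, was at the limit (8.18 to 12 ppm). In antigen presentation 6 of 23 genes were on. B2M, for the shared light chain of class I molecules, was at 565 to 1005 ppm, while HLA-B was low with 0 to 10 reads and TAP1 was absent, although Salmon can divide reads among HLA genes and these values are uncertain. HLA-DQA1 was on at 212 to 311 ppm in cells with 0 reads of HLA-DRA and at most 4 reads a library of its partner HLA-DQB1.

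**Figure D3:**
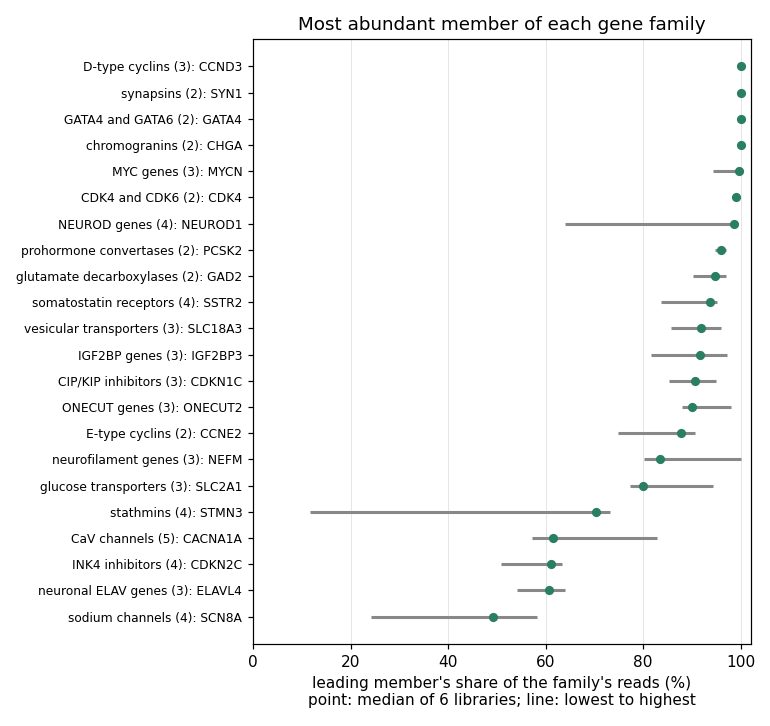
Share of reads taken by the most abundant member of each of 22 gene families (percent of the reads of the family, number of members in brackets), with the median of the 6 non-senescent libraries as a point and the lowest to highest library as a line. The leading member took over 90% of the family in every library in 8 families, and the line is longest for the stathmins.

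Across 22 gene families, which were put together after the values were seen, the same member was first in all 6 libraries in 20, and in 21 the leader by reads was also the leader per kilobase. The exceptions to the former were the stathmins and the sodium channels, none of whose 4 members was on, and the exception to the latter was the INK4 group. Single-member use was most extreme for SYN1 (100% of SYN1 and SYN2 reads), CCND3, GATA4, CDK4 and CHGA, each at or above 98.1% of its family in every library.

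Markers of other cells were scarce. Of 14 acinar genes 0 were on and 9 were absent, with a summed level of 6.80 to 7.10 ppm in A and 8.85 to 11.4 ppm in B, most of it CPA1. Of 9 duct genes only KRT19 was on, at 33.5 to 53.7 ppm. No marker of mesenchyme (11 genes), endothelium (6), immune cells (6) or Schwann cells (4) was on, and the Schwann markers SOX10 and S100B, the endothelial markers VWF and PLVAP, the T-cell marker CD3E and the mesenchymal markers LUM and PDGFRB had 0 reads. The summed mesenchyme level was 6.76 to 6.80 ppm in A and 35.1 to 40.9 ppm in B. Its 2 largest terms in B were COL6A3, at 8 and 13 reads in A and 14.4 to 27.1 ppm in B, and COL3A1, at 0 to 0.235 and 1.48 to 14.3 ppm, and their part in the differences between batches was not tested. EPCAM, CDH1 and KRT8, which mark epithelia, were on, and VIM, common in cultured cells, had 0 to 5 reads. SERPINA1, for alpha-1 antitrypsin, a gene of liver that islets also use, was at 494 to 502 ppm in A and 24.6 to 33.1 ppm in B, while the hepatocyte genes ALB and APOA1 were absent and low.

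**Figure D4:**
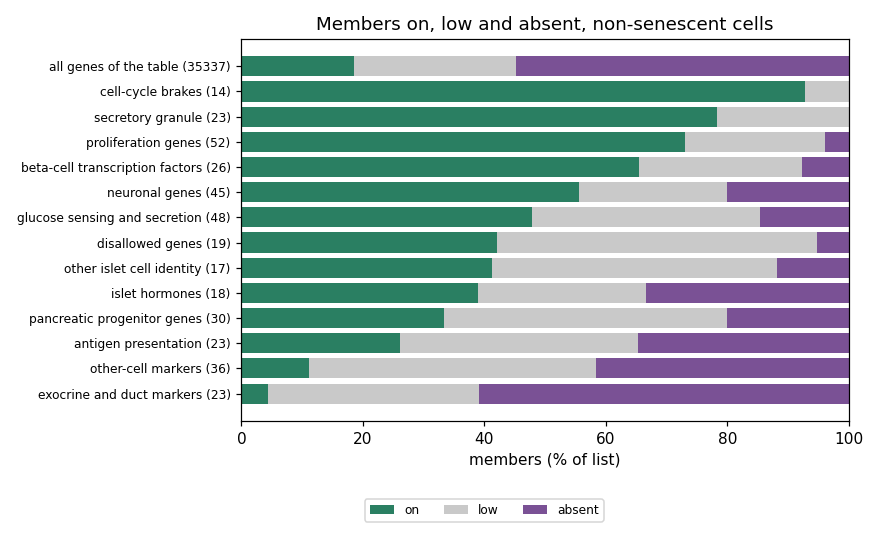
Percent of each gene list (number of genes in brackets) that was on (green), low (grey) or absent (purple) in the non-senescent libraries, beside all 35337 genes of the table, pseudogenes included. The list of cell-cycle brakes has 13 of 14 genes in green and the granule genes 18 of 23, while the exocrine and duct markers have 1 of 23 and the other-cell markers 4 of 36.

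The agreement of batches was limited, and this bounds every level above. Libraries of 1 batch ranked the genes nearly alike (Spearman's rho 0.962 to 0.972 across genes, which are not independent replicates), and libraries of different batches less so (0.910 to 0.913). Of 13803 genes tested, limma called 6805 different between batches (49.3%) where a call needed a Benjamini-Hochberg adjusted p below 0.1 and a fold above 1.5, of which 3403 were higher in B (24.7%) and 3402 lower (24.6%). The listed genes were divided in a similar way: 12 of 24 beta-cell transcription factors (9 higher, 3 lower) and 24 of 48 proliferation genes (11 higher, 13 lower) were called, shares near this background. Larger shares were called among the hormone genes, at 9 of 10 (3 higher in B, 6 lower), and the neuronal genes, at 24 of 34 (9 higher, 15 lower). The 12 called granule genes that were lower in B, of 22 tested, included CPE, PTPRN and GAD2, and the 2 that were higher were PCSK1 and PCSK2. For SST the limma log2 difference, B minus A, was -0.70 ± 0.10 SE (adjusted p = 0.000207), for INS -1.08 ± 0.16 (adjusted p = 0.000308), for GCG 0.88 ± 0.10 (adjusted p = 5.94e-05) and for PTMA 2.72 ± 0.09 (adjusted p = 3.63e-08).

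**Figure D5:**
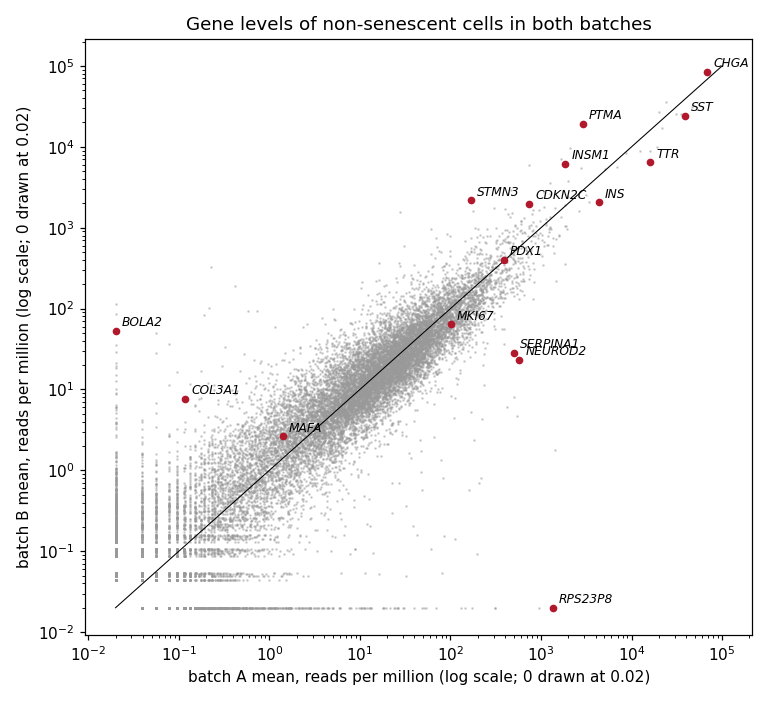
Mean level (ppm) of each gene in batch A (2 libraries, horizontal log axis) against batch B (4 libraries, vertical log axis), with genes with 0 reads drawn at 0.02, the line of equal levels and 16 genes named in red. CHGA and PDX1 lie near the line, STMN3 and PTMA lie above it, NEUROD2 and SERPINA1 lie below it, and RPS23P8 has 0 reads in batch B.

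The 5 largest batch differences in each direction included pseudogenes, read-through genes and a gene copy. RPS23P8 and RPL6P27, pseudogenes of ribosomal protein genes, were at 1295 to 1392 and 173 to 177 ppm in batch A with 0 reads in every B library, at least 2017-fold and 270-fold lower in B against a floor of 3 reads a library. The read-through gene RNASEK-C17orf49 had 0 and 4 reads in A and 254 to 358 ppm in B, and RNASEK, which lies within it, was at 512 to 588 ppm in A and 2.26 to 5.99 ppm in B. Likewise RPL17-C18orf32 was at 102 to 127 ppm in B and 0 in A while RPL17 was at 375 to 408 ppm in A and 44.9 to 62.4 ppm in B, and BOLA2 was at 46.7 to 55.9 ppm in B and 0 in A while its copy BOLA2B was at 82.5 to 87.8 ppm in A and 0 to 0.399 ppm in B. These partner genes were picked after the values were seen. The sums over a pair differed between batches as well. RNASEK with its read-through gene came to 512 to 588 ppm in A and 259 to 363 ppm in B, and RPS23 with RPS23P8 to 1629 to 1736 and 531 to 634 ppm. CDYLP1, a pseudogene, together with CDYL came to 13.3 to 15.0 ppm in A and 179 to 234 ppm in B. The other genes of the rule were AC007192.1 and CDYLP1, higher in B, and AC099560.2, AC120057.2 and AC099336.2, lower in B. In all, 45 genes were on in A and absent in B, 16 of them pseudogenes and 19 with symbols not in GENCODE v44. Another 13 genes were on in B and absent in A, of which 0 were pseudogenes and 7 had such symbols. Pseudogenes made up 0.413% of genes on in every library and 35.9% of genes absent in every library. Symbols not in GENCODE v44 made up 3.21% and 37.6%. Whether both batches were quantified on the same annotation was not tested.

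A last comparison set the proliferating cells beside the senescent ones. Of 13847 genes limma called 3237 (23.4%), with 1605 higher in senescent cells (11.6%) and 1632 lower (11.8%), and among the 100 most abundant non-senescent genes it called 8 higher and 13 lower. CHGA was not called (log2 difference, senescent minus non-senescent, 0.20 ± 0.08 SE, adjusted p = 0.0653), nor was GNAS (0.39 ± 0.07, adjusted p = 0.000306, under the fold limit). INS, IAPP and TTR were higher, by 2.23 ± 0.11, 1.87 ± 0.07 and 1.59 ± 0.13 (adjusted p = 1.26e-10, 2.34e-12 and 3.05e-08). SST had a difference of -0.64 ± 0.12 (adjusted p = 0.000448), but the difference was -1.24 within batch A and -0.35 within batch B, and its call was lost in batch B alone and without any 1 of the 4 batch A libraries, where the difference was -0.56 to -0.58. GCG had a difference of -1.30 ± 0.19 (adjusted p = 4.21e-05), with -2.36 within batch A and -0.77 within batch B.

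The lists differed in how many members were called. Of 48 proliferation genes tested 44 were lower and 2 higher in senescent cells, the 2 being MYCN (1.38 in batch A, 0.38 and not called in batch B) and CDK6 (0.42 and not called in batch A alone), with a median log2 difference of -2.35 against 0.01 over all genes. Of 40 glucose sensing and secretion genes 15 were higher and 1, PFKP, lower (-0.01 in batch A alone), and of 24 beta-cell transcription factors 6 were higher and 4 lower. Of the factors that were low in proliferating cells, MAFA, GLIS3, PAX4 and MYT1 were among the higher ones, with MAFA at 5.79 to 15.1 ppm in senescent cells (2.36 ± 0.25, adjusted p = 1.16e-06), and SIX2 was lower. The MYT1 call (0.60) was lost without non-senescent library B1 or senescent library A1, B1, B2 or B4, at 0.53 to 0.58. In batch A alone neither GLIS3 (0.18) nor MYT1 (0.45) was called. Among the brakes, CDKN1A and CDKN1C were higher, and 5 genes, among them CDKN2D, CDKN3, RBL1 and CDKN2C, were lower (for CDKN2C -0.66 ± 0.08, adjusted p = 3.3e-06), CDKN2A staying under the fold limit (-0.52 ± 0.07, adjusted p = 1.6e-05). CDKN2C was not called in batch A alone (-0.37), and CDKN2A was called in batch B alone (-0.65) and when all libraries were scaled to the same total (-0.63). PROM1 had the largest fall of the progenitor list (-4.51 ± 0.23, adjusted p = 1.35e-10), to 0.837 to 8.24 ppm. Scaling all libraries to the same total instead moved the median of all genes from 0.01 to -0.09 and the calls to 1226 higher and 2090 lower, or 37.0% higher in place of 49.6%, and it ended the call of PDX1 (0.59 ± 0.07 to 0.48).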

How the data were processed

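The 12 CEL-seq libraries were trimmed by the authors with Cutadapt, quantified with Salmon 0.13.1 on GRCh38 and normalised with DESeq2; the annotation and the use of molecular identifiers are not given in the sources used here. The deposited values are a signal, the read number per gene divided by a size factor per library, and all 196021 non-zero values (100%) were whole multiples of 1 read within 0.1%, so reads were recovered. The authors' columns of mean, log2 fold change, error, score and p-values hold their group comparison and were not used.

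Genes were ranked by the mean of the batch means of the share of reads. Per-kilobase values used the median transcript length of GENCODE v44, matched for 99.3% of genes that were on. As reads come from 3′ ends, both scales are given. Differences were tested with limma 3.58.1 (R 4.3.3, intensity trend) on log2(normalised read count + 1), which understates changes of low genes, for genes with a mean of at least 5. Batch was a term in the senescence fit. The named genes are the members of the gene lists, the 20 most abundant genes, up to 10 abundant genes without a list, and the 5 largest non-overlapping batch differences in each direction with a mean of at least 20; exceptions are marked. The members and lists were chosen with earlier results of these data known. edgeR 4.0.16 and DESeq2 1.42.0 on recovered reads, other scalings, filters, limits and left-out libraries were alternatives. On simulated data 100 of 13803 genes were changed 2-fold and 100 were changed 4-fold. The batch test called 57% and 87% of them, and it called 0 genes where none was changed. The same test for senescence, on 13847 genes, called 81% and 96%. Of the 155 batch calls on the changed data 92.9% were changed genes, and of the 183 senescence calls 96.7%. The real batch fit called 49.3% of genes, far more than were changed here, so these shares need not hold for it. Some members of the gene lists are counted but not reported by name here.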

Additional observations from a re-analysis of the deposited data

Results flagged for a closer look

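In 217 values of the 6 non-senescent libraries that were tested for a library lying apart, 3 were found. For libraries without batches, chance alone gives about 1 in 20. The test divided the gap between an end library and its nearest neighbour by the range over all 6, with both batches pooled. A difference between batches widens that range, so 3 of 217 cannot be set against this share. NKX2-2 was at 102 ppm in replicate B4 and at 126 to 140 ppm in the others. ACOT7 was at 26.1 ppm in replicate B4 and at 12.9 to 17.1 ppm in the others. B2M was at 1005 ppm in replicate A2 and at 565 to 727 ppm in the others.

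The difference between senescent and non-senescent cells itself differed between batches (limma interaction, adjusted p under 0.1) for 14 of 45 genes followed. These 45 were the 20 most abundant genes and genes the text names. The share over all genes was not counted, so whether 14 of 45 lies above it is not known. The interaction (log2, the value in B less that in A) came to 0.89 for SST, whose difference was -1.24 in A and -0.35 in B, and 0.89 for TTR, with 0.99 in A and 1.88 in B. It was 0.71 for SLC30A8 (-0.63 in A, 0.08 in B) and -0.72 for NKX6-1 (0.11 in A, -0.61 in B). GCG had 1.59 (-2.36 in A, -0.77 in B) and PTMA had -0.67 (-0.32 in A, -0.99 in B). Of the mitochondrially encoded genes, MT-CYB had -0.41, MT-ND2 -0.47 and MT-CO3 -0.47. Of the cell-cycle genes, CDKN1A had 2.60 (2.18 in A, 4.78 in B), MYCN -0.996, CDKN2C -0.43 and CDKN2A -0.38, and PROM1 had -1.37 (-3.59 in A, -4.96 in B). What these differences come from was not tested.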

How the results depend on the processing

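At a limit of 50 ppm, 1861 genes and 87 of the 177 listed genes counted as on were still on. Without mitochondrially encoded genes the 100 most abundant took 37.5% of the reads, and without ribosomal protein genes too 38.2%, against 47.6% with all genes. The INS share was 0.432% in batch A alone and 0.207% in batch B alone. Taking the batch means in place of every library, an alternative chosen after seeing the data, put 7134 genes on, against 6532. With single libraries left out 6584 to 6656 genes were on, and by the rule this number cannot fall. Genes called between batches numbered 5361 to 7282 over all alternatives, the lowest with 1 batch A library, which is then assumed to vary like batch B. Replicate numbers did not pair libraries (same-number correlations -0.051 to 0.016); a replicate block gave 3211 senescence calls. Alternatives were computed for 45 genes in the senescence fit, where a call was lost in 33 cases, gained in 5 and reversed in 0. In the batch fit 23 genes were followed, and no call was lost or reversed. These 23 were the 5 largest batch differences in each direction and genes picked by name, among them NEUROD2, STMN3 and PTMA. As many were chosen for a wide batch gap, their kept calls say little about other genes. In the senescence fit PDX1, MYT1 and SST lost their call most often, and CDKN2A, MT-CO1, SLC30A8 and NKX6-1 gained one. Other named genes were not followed. Thinning to the smallest library moved MEN1 and SIX3 from on to low, and the low or absent class of genes near 3 reads depends on depth. No cause was tested.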
